A study of Rattus norvegicus with 4 samples.

Results

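A set of 9 transcription factors of the neural crest and of glia were followed in cultured olfactory ensheathing cells sorted on p75. They were Sox10, Sox2, Sox9, Foxd3, Pax3, Egr2, Pou3f1, Tfap2a and Olig2. Their probes were found by gene name on the array, and the set itself was put together with earlier results of these data known. The array file gave 9 probes for 7 of the 9 genes under these names. Sox2 and Tfap2a stood in it under older names (RGD1565646 and Tcfap2a) and were matched by synonym in RefSeq (assembly GRCr8), 1 probe each. This made 11 probes for 9 genes, of 41012 probes for 35655 gene names on the array. Of these, 9 probes of 7 genes were above background and entered the test over 22187 genes.

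The cells came from male Fischer rats, and every sample shared that strain and sex. No transgene or treatment is named, and no age is stated. Flow cytometry separated cells with high p75 (p75High) from cells with low p75 (p75Low), at 98% purity by the labels. Each of 4 biological replicates gave 1 array with p75High cDNA in Cy5 (red) and p75Low cDNA in Cy3 (green), with the dyes in the same order every time, so dye and population cannot be told apart for a single gene. Whether a replicate is its own animal or culture is not stated, so p-values reflect only the scatter among these samples, some of which may be technical. Results are given as the log2 ratio of p75High to p75Low, mean ± SD over n = 4 arrays, and adjusted p comes from limma over all genes tested. Intensities are normalised spot brightness in arbitrary units, and a level of 1 gene is not set against that of another. Probes of 1 gene are called brighter or dimmer by their mean intensity, and sums over a marker list are compared between populations.

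The neural crest is an embryonic cell population that gives rise to peripheral glia, melanocytes and other cells, and ensheathing glia of the olfactory nerve are known to derive from it. Tfap2a, Pax3 and Foxd3 act early in the crest, Sox9 and Sox10 follow, and Sox10 is then kept on in peripheral glia. In Schwann cells, Sox2 and Pax3 mark the immature state, while Pou3f1 (Oct6) and Egr2 (Krox20) drive myelination together with Sox10. Olig2 is a factor of the oligodendrocyte lineage in the central nervous system.

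Probe sequences are shown for the members whose probes gave the largest ratios, the steadiest ratios or conflicting ratios. Positions are in rat build rn4, which the array file headers name. The Sox10 probe lay on chromosome 7 at 117138840 to 117138899 (minus strand). It holds AATAAA, the letters of the common polyadenylation signal, at bases 32 to 37 of 60, and bases 20 to 49 are printed with that hexamer in capitals.
Sox10: cagcgatatcttAATAAAgtacgtagctct
The other probes are printed whole. One Sox9 probe begins with the start codon, in capitals, and lay on chromosome 10 at 102393822 to 102393881 (plus strand). The other Sox9 probe lay 402 bases further on, at 102394224 to 102394283, in the part that encodes the DNA-binding HMG box.
Sox9, start codon: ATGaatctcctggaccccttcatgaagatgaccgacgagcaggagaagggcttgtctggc
Sox9, HMG box: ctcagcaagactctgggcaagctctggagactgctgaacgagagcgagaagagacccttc
The Sox2 probe lay on chromosome 2 at 120969725 to 120969784 and the Olig2 probe on chromosome 11 at 31206908 to 31206967, both on the plus strand. The Olig2 letters encode part of the helix-loop-helix region.
Sox2: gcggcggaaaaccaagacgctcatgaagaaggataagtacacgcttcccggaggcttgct
Olig2: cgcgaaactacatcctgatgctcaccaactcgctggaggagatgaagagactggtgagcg
The Pax3 probes lay 65.4 kb apart on the minus strand of chromosome 9. The paired box probe was at 77574793 to 77574852 and the homeobox probe at 77509396 to 77509455.
Pax3, paired box: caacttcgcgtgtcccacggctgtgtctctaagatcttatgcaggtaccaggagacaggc
Pax3, homeobox: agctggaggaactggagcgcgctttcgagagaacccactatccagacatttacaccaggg
Any pair of the 11 probes shared a run of at most 9 bases, also among the Sox genes. Each member probe was printed as 1 spot per array, and 0 of its readings were marked as outliers.

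Across the members, Sox10 stood out as far brighter in p75High cells, Olig2 was brighter in p75Low cells on every array, and the other 5 tested genes had mean ratios between -0.55 and 0.76. Of the 7 tested members, 0 passed the adjusted threshold of 0.05 in limma, and 1 (Sox10) had an unadjusted p under 0.05. Over all genes tested, 0.748% passed the adjusted threshold (0.311% higher and 0.437% lower), and 12.7% had an unadjusted p under 0.05. One member (Sox10) was higher on all 4 arrays, against 12.5% of all genes tested, and 2 (Sox2 and Olig2) were lower on all 4, against 13.0%. Together 3 of 7 members kept 1 sign on every array, against 25.5% of all genes tested. The median of the mean ratios over the 7 members was 0.23, and over all genes tested it was -0.03. By array, however, the median over the tested members was -0.47, -0.17, -0.11 and 0.12 on arrays 1 to 4. The members thus had no common direction. A permutation of signs over 4 arrays, an exact two-sided test, cannot give a p below 0.125, which among the tested members is the value it gave for Sox10, Sox2 and Olig2.

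**Figure D1:**
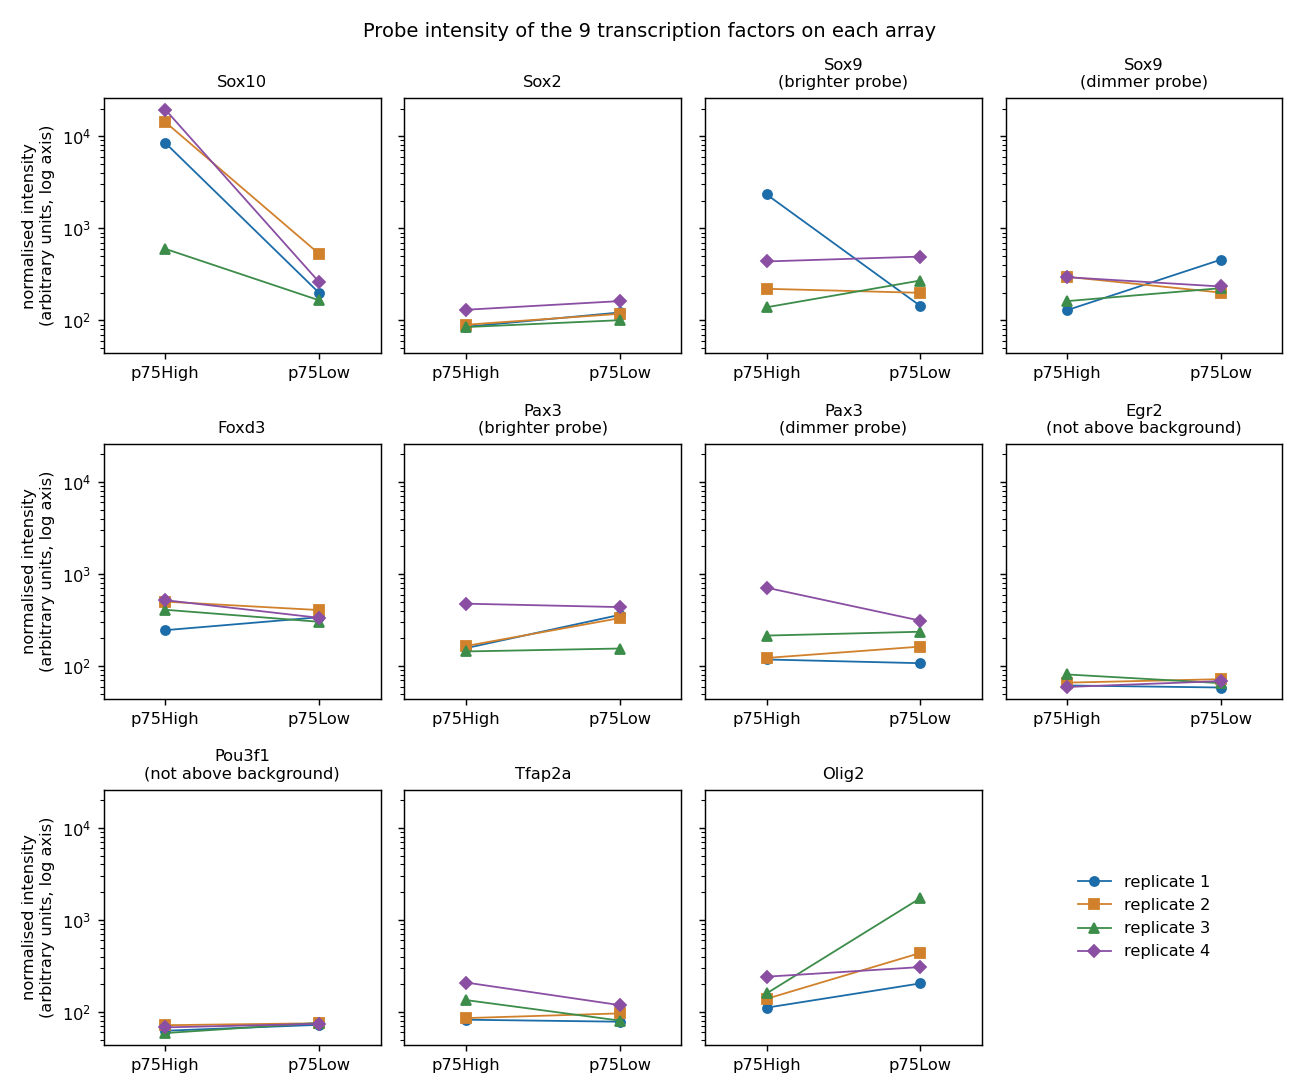
Normalised intensity (arbitrary units, log axis) of each of the 11 probes in p75High (left) and p75Low (right), with a line joining the channels of 1 array. Sox10 was brighter in p75High on all 4 arrays, with replicate 3 far below the other arrays in p75High at 599; Olig2 was brighter in p75Low on all 4; Egr2 and Pou3f1 stayed at the background level.

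Sox10 encodes the HMG-box factor that specifies and maintains peripheral glia and melanocytes. Its probe read 8468, 14275, 599 and 19488 in p75High cells of replicates 1 to 4, against 199, 529, 165 and 262 in p75Low cells. The dimmest p75High sample (599, replicate 3) lay only a little above the brightest p75Low sample (529, replicate 2). The share of all genes with such a gap is not given here, so how unusual it is cannot be judged. Both channels were well above background on every array, so the p75Low samples also gave a Sox10 signal. With a sort purity of 98% by the labels, the part of p75High cells carried into those samples was not tested. In log2 ratios, the arrays read 5.41, 4.75, 1.86 and 6.22. The mean was 4.56 ± 1.90, a 23.6-fold ratio (SE 0.81, 95% interval 2.44 to 6.68, unadjusted p = 0.00305, adjusted p = 0.155). The interval lies above 0, but the gene did not pass after adjustment over 22187 genes. It ranked 119th from the top of the ratios of all genes tested, and 0.532% of genes had a higher mean. On single arrays, 1.82%, 3.05%, 14.2% and 1.17% of genes had a higher ratio than Sox10, so its place was near the top on 3 arrays and lower on replicate 3. Without replicate 3 its mean was 5.46 (adjusted p = 0.124). In bulk samples, fewer cells of a type and less RNA per cell cannot be told apart.

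Ngfr, which encodes p75 and was the sorted antigen, read 6.07, 6.17, 5.02 and 5.96 on the same arrays. Replicate 3 was thus the lowest array for both genes, but Ngfr (5.80 ± 0.53, adjusted p = 0.0262) varied less than Sox10.

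Sox9, another HMG-box gene of the crest and of glial progenitors, gave no single direction. Its HMG box probe, the brighter one, read 2337, 220, 139 and 437 in p75High cells, against 144, 199, 271 and 493 in p75Low cells. The start codon probe read 129, 297, 162 and 294 in p75High cells, against 457, 200, 224 and 233 in p75Low cells. With either probe the populations overlapped. On replicate 1 the probes opposed each other, with log2 ratios of 4.02 at the HMG box and -1.82 at the start codon, a gap of 5.85 over 402 bases of the same gene. The probes had the same sign on 2 of 4 arrays, and the mean gap was 1.82. Means were 0.76 ± 2.23 at the HMG box (SE 0.93, 95% interval -1.70 to 3.21, adjusted p = 0.742) and -0.35 ± 1.08 at the start codon (adjusted p = 0.785 in the fit over all kept probes). Without replicate 1 the HMG box mean was -0.33 (adjusted p = 0.759), so its sign rested on that array.

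Sox2, an HMG-box gene of neural stem cells and of immature Schwann cells, was dim, and its ratios varied little between arrays. It read 85.2, 89.7, 84.6 and 130.5 in p75High cells, against 121.9, 117.9, 100.5 and 162.0 in p75Low cells. The level was lower in p75High on each array, although the ranges of the populations overlapped. The log2 ratios were -0.52, -0.39, -0.25 and -0.31, and the mean was -0.37 ± 0.12 (SE 0.26, 95% interval -1.06 to 0.32, adjusted p = 0.584). Only 1.21% of genes tested had a smaller SD over the arrays. After subtraction of the background alone, Sox2 read 30.2, 28.8, 42.9 and 36.1 in p75High cells, against 50.2, 42.1, 31.6 and 44.1 in p75Low cells. On replicate 3 the p75High channel was thus the higher one before normalisation. These signals are close to or below the offset of 50 used in the background correction, and its part in the small SD was not tested. With no background correction the mean was -0.49 (adjusted p = 0.551), and with the scanner's own ratios it was -0.999 (adjusted p = 0.446).

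**Figure D2:**
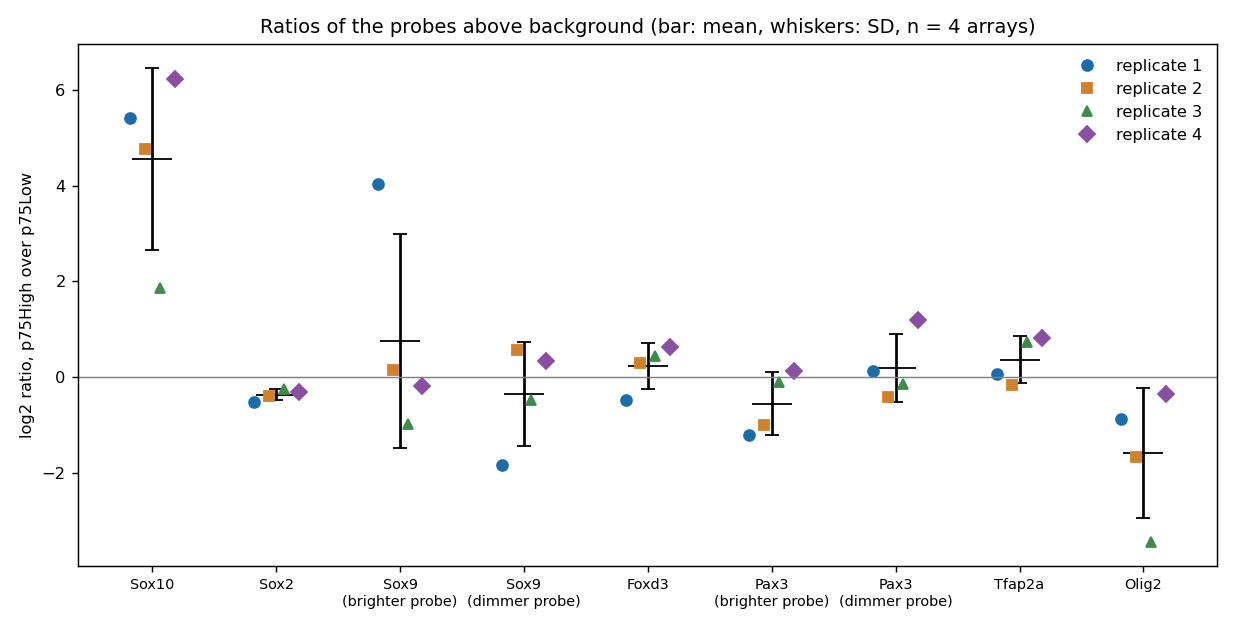
Log2 ratio of p75High over p75Low for the 9 probes above background, with 1 symbol per array, the mean as a bar and the SD as whiskers. Sox10 lay above 0 on all 4 arrays (1.86 to 6.22), Sox2 and Olig2 lay below 0 on all 4, and the Sox9 probes parted on replicate 1.

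Among the early crest factors, none had the same sign on every array with either probe. Foxd3, a forkhead repressor that keeps crest cells undifferentiated, read 246, 502, 410 and 521 in p75High cells, against 340, 407, 304 and 335 in p75Low cells. Its mean was 0.23 ± 0.48 (95% interval -0.62 to 1.08, adjusted p = 0.778), with a negative ratio of -0.47 on replicate 1 and positive ratios on the other arrays. Tfap2a, an AP-2 factor of the crest border, read 82.5, 85.8, 134.8 and 209.0 in p75High cells, against 78.4, 96.6, 80.7 and 118.9 in p75Low cells. Its mean was 0.36 ± 0.49 (95% interval -0.49 to 1.22, adjusted p = 0.651), and it was well above background on all 4 arrays in p75High cells and on 3 in p75Low cells. With the scanner's ratios the Tfap2a mean was 1.36 (adjusted p = 0.399). The ranges of the populations overlapped for both genes.

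Pax3, a paired-box factor of the crest and of immature Schwann cells, differed between its probes. The homeobox probe, the brighter, read 157, 166, 145 and 478 in p75High cells, against 361, 333, 156 and 438 in p75Low cells. The paired box probe read 118, 123, 215 and 712 in p75High cells, against 108, 163, 237 and 312 in p75Low cells. The means were -0.55 ± 0.65 at the homeobox (95% interval -1.52 to 0.42, adjusted p = 0.567) and 0.19 ± 0.70 at the paired box (adjusted p = 0.843 in the fit over all kept probes). The probes had the same sign on 3 of 4 arrays and differed by up to 1.33. Replicate 4 was the brightest array for both Pax3 probes in both populations.

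The myelination factors Egr2, a zinc finger factor, and Pou3f1, a POU-domain factor, were not well above background in either channel on any array. After subtraction of the background, Egr2 read -3.92, -0.53, 6.63 and -5.78 in p75High cells, against -4.80, 5.22, -1.83 and 0.48 in p75Low cells. Pou3f1 read -2.33, -1.16, 0.94 and -1.73 in p75High cells, against 2.07, 4.91, 5.95 and 4.65 in p75Low cells. The Egr2 values lie on both sides of 0. The Pou3f1 values are close to 0, though positive in p75Low cells and higher there than in p75High cells on every array. Since neither gene was above background, no ratio is given, and a level below the detection limit of these single probes remains possible. Both probes had 35% G and C, while the kept probes of the members had 45% to 56.7%; the part of base composition was not tested.

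Olig2, the helix-loop-helix factor of oligodendrocyte precursors, was brighter in p75Low cells. It read 111, 139, 159 and 242 in p75High cells, against 204, 438, 1722 and 307 in p75Low cells. Within each array p75Low was the brighter channel, by most on replicate 3, and the ranges over arrays overlapped. Ratios were -0.88, -1.65, -3.44 and -0.35, with a mean of -1.58 ± 1.35, a 2.99-fold lower level in p75High (SE 0.60, 95% interval -3.16 to 0.0042, unadjusted p = 0.0504, adjusted p = 0.394). Of all genes tested, 9.21% had a lower mean. Without replicate 3 the mean was -0.96 (adjusted p = 0.561). Olig1, its neighbour gene and partner in the oligodendrocyte lineage, read -2.39, -1.45, -2.34 and 0.55, with a mean of -1.41 ± 1.37 (adjusted p = 0.43), and was chosen here after its values were seen. Nkx2-2, another factor of that lineage, had the opposite sign, with 0.48, 0.71, -0.04 and 2.93 (mean 1.02 ± 1.31, adjusted p = 0.52), and was chosen likewise.

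Genes whose 4 array ratios lay nearest to a member were taken for the 3 members with 1 sign on all arrays, by the root mean square difference among 10587 genes with a symbol. For Sox10 these were Rbm4b (0.505), Dbi (0.536) and Atf3 (0.819), each of them also lowest on replicate 3. For Olig2 they were Lime1 (0.34), Nsmce3 (0.41) and Abhd4 (0.45). For Sox2 they were Or1a1b (0.07), Mex3a (0.10) and Dok4 (0.11), all with small negative ratios. With 4 arrays, such likeness is a description only. The genes were picked by it, so the shared low replicate 3 and the shared small negative ratios follow from the choice.

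A list of genes taken as targets of Sox10 or Egr2 in Schwann cells was read beside Sox10. Whether each gene is a target in these cells was not tested. Of the 18 genes in that list 15 were tested and 0 passed the adjusted threshold in limma, while 2 had an unadjusted p under 0.05, against 12.7% of all genes tested. Of the 15, 3 were higher on all 4 arrays (12.5% of all genes tested) and 0 were lower on all 4 (13.0%), and the list median was 0.42 (1.12 with the scanner's ratios, and 0.16 without replicate 3). S100b, a calcium-binding protein of glia, read 0.33, 5.11, 3.82 and 5.75 (mean 3.75 ± 2.42, adjusted p = 0.30). Drp2, a dystrophin-related protein of myelinating Schwann cells, read 1.32, 2.53, 1.39 and 2.98 (mean 2.05 ± 0.83, adjusted p = 0.20), while its other probe read 0.01. Both had positive ratios on every array, though S100b on replicate 1 was close to 0. Erbb3, the neuregulin receptor of Schwann cells, read 0.17, 4.50, 2.24 and -0.99 (mean 1.48 ± 2.41, adjusted p = 0.57) and was picked after its values were seen. On replicate 4, where Sox10 had its highest ratio, the list median was 0.01, and on replicate 3, where Sox10 had its lowest, it was 1.17.

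**Figure D3:**
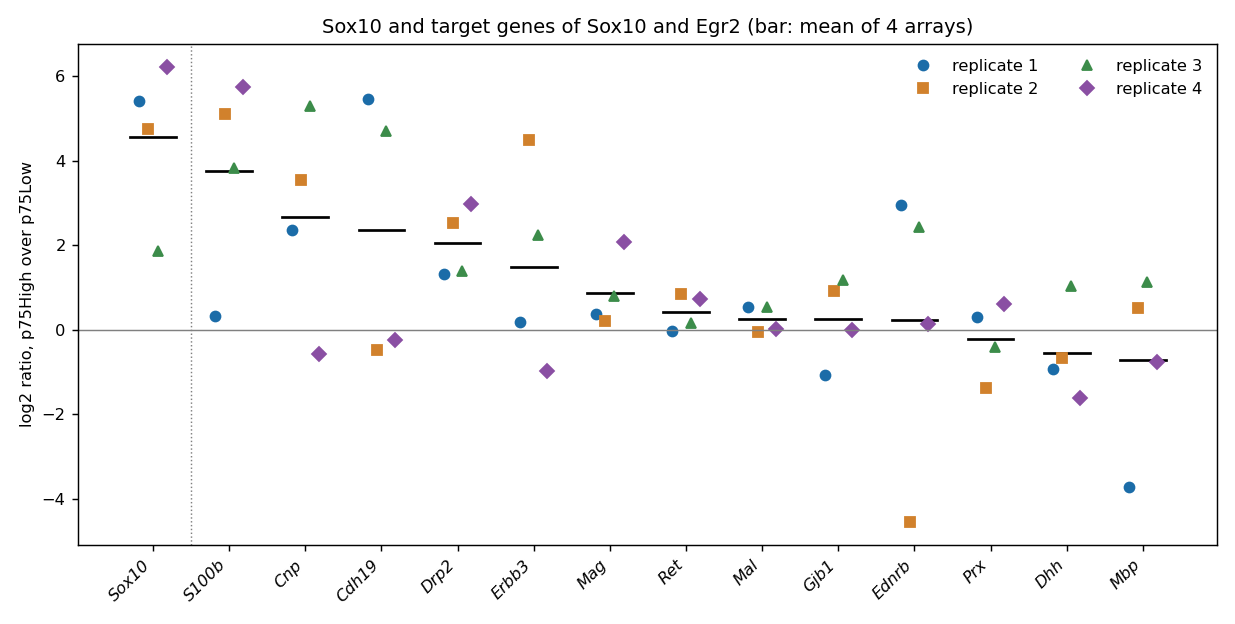
Log2 ratio of p75High over p75Low on each array for Sox10 (left of the dotted line) and for tested target genes that are reported here, in order of their mean (bars). Symbols of 1 array do not keep 1 rank from gene to gene; Erbb3 runs from -0.99 on replicate 4 to 4.50 on replicate 2.

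Other regulators related to the members were read from 4 lists of 62 genes in all, of which 44 were tested. None passed the adjusted threshold in limma, 7 had an unadjusted p under 0.05, 6 were higher on all arrays and 6 were lower on all arrays. Over all genes tested these shares were 12.7%, 12.5% and 13.0%, so the counts lie near the background. Their median was 0.18. Among neural crest regulators (12 tested, median -0.05), Zeb2, a zinc finger repressor, read 1.39 ± 1.53 over the 3 arrays with a usable spot (adjusted p = 0.51).

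Regulators of Schwann cell maturation (11 tested, median 0.18) held values in both directions. Jun, a factor of immature and repair Schwann cells, read 1.57, 2.68, 0.64 and 1.98 (mean 1.72 ± 0.85, adjusted p = 0.28). Hdac1, a histone deacetylase that works with Sox10 in Schwann cells, read 1.82, 2.16, 3.36 and 5.99 (mean 3.33 ± 1.89, adjusted p = 0.26). Jun and Hdac1 were thus positive on every array without passing. Nab2, a corepressor of Egr factors picked after its values were seen, read -1.23 ± 0.48 (adjusted p = 0.30).

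Central glial factors (11 tested, median -0.15) and other Sox family genes (10 tested, median 0.57) also had 0 past the threshold. Nfix, a nuclear factor I gene, read 4.37, 3.35, 4.45 and 1.14 by its brightest probe (mean 3.33 ± 1.54, adjusted p = 0.19), but its other kept probes read -0.03 and 0.07. In the Sox family, Sox7 read -1.74 ± 0.63 (adjusted p = 0.20) and Sox11, a gene of immature neurons, read 1.47 ± 0.75 (adjusted p = 0.30), each with 1 sign on all arrays. Sox8, which forms the SoxE group with Sox9 and Sox10, read 0.06, 0.46, 1.47 and 0.16 (mean 0.54 ± 0.65, adjusted p = 0.57) and was picked after its values were seen.

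**Figure D4:**
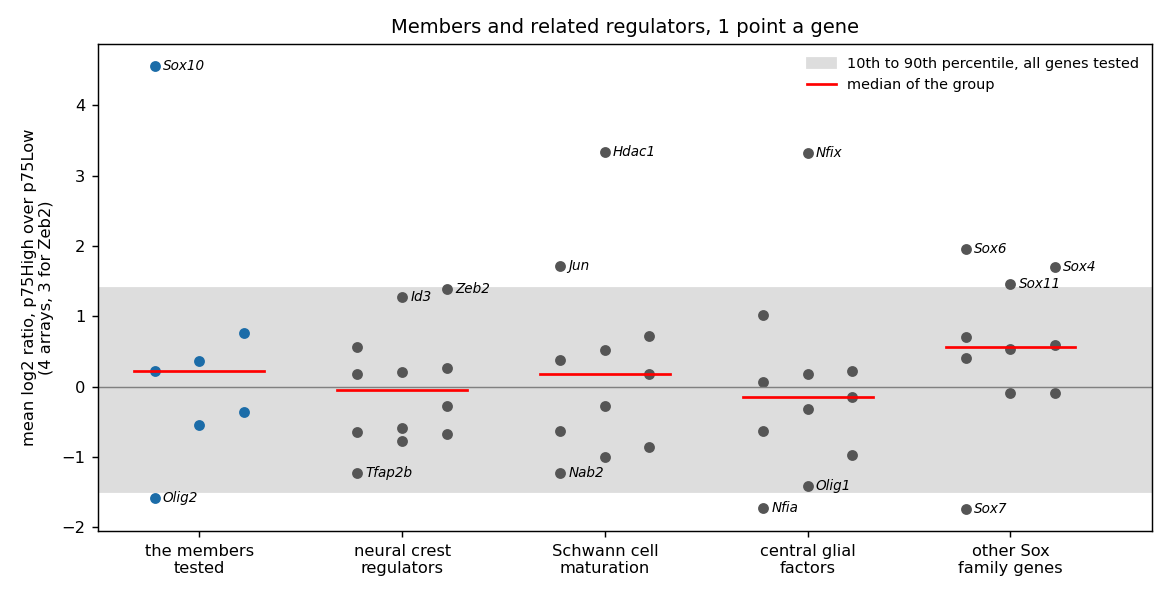
Mean log2 ratio of p75High over p75Low for the 7 tested members and 44 related regulators, 1 point a gene, with the group median as a red line and the band from the 10th (-1.50) to the 90th percentile (1.41) of all genes tested in grey. Sox10 at 4.56 lies farthest from 0; Hdac1 and Nfix follow at 3.33.

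Markers of the cell types that the cultures could hold were read beside these values. Of 10 ensheathing glia markers, all tested, Ngfr alone passed and was higher, and the median was 1.99. Their summed intensity was 29844 to 51541 in p75High cells, against 4110 to 14822 in p75Low cells, with Ngfr itself in the sum and with S100b also in the target list above. Markers of microglia and macrophages went the other way: of 8 tested, 6 were lower past the threshold and 7 were lower on all 4 arrays. The microglia and macrophage sum was 6025 to 13428 in p75High cells, against 158711 to 251151 in p75Low cells, so the p75Low samples held far more myeloid signal on every array. Itgam read -5.77 ± 0.33 (adjusted p = 0.03), and Ctss and the brightest probe of Csf1r read -6.11 ± 0.79 and -6.08 ± 0.61 (adjusted p = 0.03 each), while the other Csf1r probes read -0.25 and 0.41. Each of the 8 was well above background in p75High on at least 3 arrays, so none was at 0. The myeloid sums thus differed between the same populations as Sox10 and Olig2, and their part in either ratio was not tested.

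Of 8 fibroblast markers 5 were tested and 0 passed, and the median was -0.99. Col1a1 read 2.73 ± 1.20 (adjusted p = 0.19), with other probes at 3.79 and 3.56, and Col1a2 read -2.71 ± 1.48 (adjusted p = 0.26), with another probe at -0.91. Col3a1, Thy1 and Fn1 had means of -2.42, -0.99 and -0.89, so Col1a1 alone had a positive mean. The fibroblast sum was 38475 to 72868 in p75High cells, against 13040 to 34440 in p75Low cells, higher in p75High on all 4 arrays although 4 of the 5 genes had negative means, and its part in the Sox10 ratio was not tested. In the smooth muscle, astrocyte and neuron lists, 3, 3 and 5 genes were tested, 0 passed, and the medians were -0.09, -0.05 and -0.32. Des read -0.11 ± 0.36 (0.089 with median centring), Tagln 0.45 ± 3.76, Aldh1l1 0.37 ± 0.52, Gjb6 -0.20 ± 0.23, Rbfox3 -0.86 ± 0.37 and Syt1 0.68 ± 0.16. None of the 5 melanocyte markers (Tyr, Dct, Pmel, Mlana and Tyrp1) was well above background on more than 1 array in either channel. Melanocytes share Sox10 and Pax3 with glia, and their defining markers were thus near background here. A level below the detection limit of these probes remains possible. The part of melanocytes in the Sox10 ratio was not tested.

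**Figure D5:**
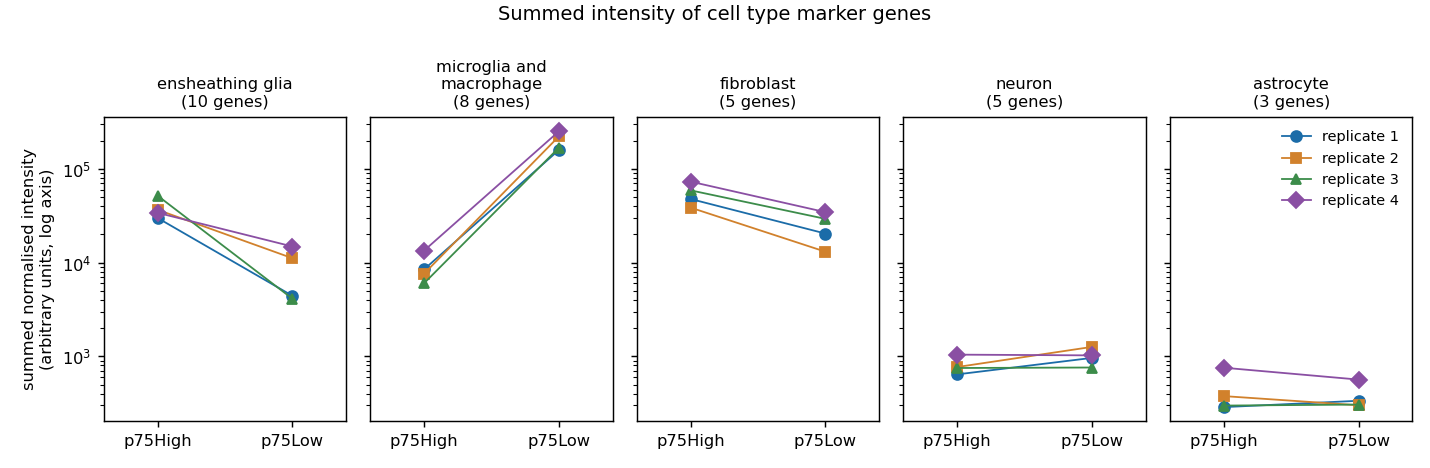
Summed normalised intensity (arbitrary units, log axis) of the tested markers of 5 cell types in p75High (left) and p75Low (right), with a line for each array. Ensheathing glia and fibroblast sums were higher in p75High, and the microglia and macrophage sum was lower in p75High, on all 4 arrays.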

How the data were processed

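Cells were lysed, and mRNA was bound to magnetic beads and amplified as cDNA by a global PCR, per the labels' protocols. The deposited intensity values are, per the file headers, spot brightness and local background of each channel, read with Feature Extraction 10.5.1.1 (10.5 in the submitters' processing notes); the background-subtracted intensities are also the authors' deposited values. The log10 ratio (red to green) that the authors deposited was background-subtracted and dye-normalized, per the file headers, and the authors' value table held the same values (largest difference 0). Flags (score of 0 or 1) marked outliers and spots well above background.

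In limma 3.58.1 (R 4.3.3), background was corrected by normexp with offset 50, and each array was loess-normalized with span 0.3. Control spots and outlier readings (1112, 0.641%) had weight 0 and were left out, and 0 gene spots were saturated. Repeat spots were averaged. Probes well above background in 1 channel on at least 3 of 4 arrays were kept (24941), and the brightest stood for a gene (22187 tested). Channel intensities were then scaled between arrays (Aquantile) for display. The log2 ratio was tested against 0 with lmFit and eBayes, two-sided, Benjamini-Hochberg adjusted. Names were updated through RefSeq (21503 of 41012 probes unmatched). Between 22464 and 28062 probes per array were above background in p75High and between 23044 and 26174 in p75Low; with 4 arrays on 1 slide, their number limits the precision.

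The channels of an array are a pair, per the labels' design text. The correlation of deviations across genes was 0.13, 0.06, 0.07 and 0.26 within arrays 1 to 4. Alternatives were no background correction, median centring, the scanner's ratios, other filters on dim probes, outliers kept, other summaries by gene, the channels unpaired, and each replicate left out. Named genes were the members, Ngfr, up to 3 genes past the threshold in each of 12 lists (or the 2 of smallest p), and the 3 genes nearest to a member; a few are not reported here. Members and lists were chosen with earlier results of these data known.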

Additional observations from a re-analysis of the deposited data

How the results depend on the processing

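No member passed the threshold in any of 13 alternatives. By its brightest probe or the median over its probes, each tested member kept its sign in all of them, except for Sox9. Sox9 ran from -0.33 (without replicate 1) to 1.33 (without replicate 3). The other filters on dim probes, the fit over all kept probes and the unpaired channels left these means unchanged. The sign could therefore not change in those alternatives. The paired box probe of Pax3, taken alone, had a positive mean (0.19). Sox10 ran from 4.01 (without replicate 4) to 5.46 (without replicate 3), with adjusted p between 0.0883 (scanner ratios) and 0.425. Olig2 ran from -2.08 to -0.96, and Sox2 from -0.999 to -0.25. The count of 166 genes past the threshold was 265 with the scanner ratios, 89 with no filter on dim probes and 308 when the pairing was dropped (no replicate block). Leaving out any single replicate brought limma's count to 0 each time, with an unadjusted p under 0.05 for 1885 to 2373 genes; Ngfr, Ctss, Csf1r and Itgam therefore did not pass there. Csf1r also did not pass as the median over its probes (-0.25). Des read 0.089 with median centring and -0.22 to 0.057 with a replicate left out, and Tagln read -1.09 to 1.96 with a replicate left out. Median centring shifted the median of all genes by 0.15. The cause of these changes was not tested. Pou3f1 and Egr2 were limited by signal at the background level.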
